A study of Schmidtea mediterranea with 48 samples.

Results

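Averaged over both control experiments, the planarian transcripts described here were not below a set limit at 6 hours post-amputation (hpa) and were lower at 24 hpa. They number 164 of the 26563 transcripts in the count table. They were chosen from the control libraries of both experiments. Each library's counts were divided by its total and scaled to CPM (counts per 1000000), and the log2 change from 0 hpa of the mean CPM, with 0.5 CPM added, was averaged over both control experiments. A transcript entered when this average was above -0.6 at 6 hpa and at or under -0.7 at 24 hpa, with at most 200 transcripts taken. It also had to reach 1 CPM in both controls at 0 hpa, and the SD divided by the mean, averaged over the 0 hpa groups, had to be under 0.5. No upper limit was set at 6 hpa, where the members' averaged changes ran from -0.599 to 1.03. The fall in controls between 0 and 24 hpa is therefore what defined the set and is given below as a description.

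The animals were asexual Schmidtea mediterranea of strain CIW4, a flatworm that regrows missing body parts, and RNA came from wound faces of tail fragments, with 5 wounds pooled in each replicate. In the 10-feeding experiment, animals ate myoD double-stranded RNA or the control double-stranded RNA, made from the nematode gene unc-22, on 10 occasions in 5 weeks per the labels; the series text gives 8 feedings. In the 6-feeding experiment, animals ate follistatin (fst) or unc-22 double-stranded RNA on 6 occasions in 3 weeks. Each of the 4 arms was sampled at 0, 6, 24 and 48 hpa with 3 libraries per time, 48 libraries in all, and control animals had thus been fed double-stranded RNA and cut like the others.

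Planarian regeneration begins with a transcriptional response to wounding, followed by division of stem cells called neoblasts and by resetting of positional information carried largely by muscle. MyoD is a transcription factor of the muscle lineage, and Follistatin binds and inhibits Activin-type signals. Both are known in planarians as genes needed for the response to missing tissue. The files give assembly identifiers that are not paired with gene names, so no role can be given to a member, the knockdown of myoD and fst could not be read from their own transcripts, and no marker list could be matched to check the tissue.

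Libraries held between 7169717 and 22065480 counts, and no library repeated another. Replicate 1 of fst RNAi at 48 hpa is labelled as carrying human contamination: 46 transcripts lay more than 4-fold from the mean of the other libraries of its group, of which 1 was a member, and 15 members lay more than 2-fold from it. A transcript outside the set, dd_Smed_v4_28185_0_1, read 2.63 to 6.70 CPM in the 9 libraries of fst RNAi at 24 and 48 hpa and of the 6-feeding control at 48 hpa, and at most 0.277 CPM in the other 39. Comparisons of fst RNAi at 24 or 48 hpa against 0 hpa cross this division of the libraries, as do the values of the 6-feeding control at 48 hpa against 0 hpa, and its part in them was not tested. The comparison of fst RNAi against control at 48 hpa lies within it. The labels do not say that replicates came from separate sets of animals, so each p-value reflects how the samples of a group scattered, and that scatter may be technical in part.

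In control wounds the set was lower at 6 hpa by a small margin, lower at 24 hpa and lower still at 48 hpa. The median member stood at 82.4% of its own 0 hpa level at 6 hpa, 51.5% at 24 hpa and 39.3% at 48 hpa in the 10-feeding control. The corresponding medians in the 6-feeding control were 87.7%, 50.4% and 38.9%. As log2 changes averaged over both controls, the members' medians were -0.19 at 6 hpa, -0.89 at 24 hpa and -1.21 at 48 hpa. The 14676 transcripts that met the level and spread limits had medians of -0.02, 0.07 and 0.16 at the same times. In RNA from whole wound faces, fewer cells of a type and less RNA per cell cannot be told apart.

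Most members were modestly reduced at 24 hpa. The averaged change at 24 hpa ranged down to -2.56, and 55 of the 164 were at or under -1, which is at least 2-fold lower. Of the 164, 148 were already below their 0 hpa level at 6 hpa. At 48 hpa, 124 members were lower than at 24 hpa, 141 were still at or under -0.7 and 106 were at or under -1. The 48 hpa libraries did not enter the rule, but these counts also use control libraries of 0 or 24 hpa, which did. They are given as a description. The 14676 transcripts that met the level and spread limits had a lower quartile of -0.07 at 48 hpa. The reduction at 24 hpa appeared in both control experiments for 161 members, and 157 were at or under -0.5 in each. All 3 libraries at 24 hpa lay below all 3 at 0 hpa for 150 members in the 10-feeding control and 151 in the 6-feeding control, where the same held for 14.1% and 18% of the 14747 transcripts at 1 CPM or more. Since the rule used these libraries, nothing is read from those shares. The members nearest inside the limit had averaged 24 hpa changes of -0.704, -0.703 and -0.701, and the nearest outside it had -0.699, -0.699 and -0.698, so the set has no natural edge.

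Members covered a wide range of abundance. At 0 hpa in the 10-feeding control they ran from 1.11 to 45607 CPM with a median of 17.3 CPM, beside a median of 16 CPM for the transcripts that met the limits. Of the members, 100 were above 10 CPM there and 35 were above 100 CPM. Only 3 share an assembly component number with another transcript of the table, 2 of them with each other, so splitting of reads between related transcripts of 1 component touches few members. All 164 passed the low-count filter of the tests below.

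**Figure D1:**
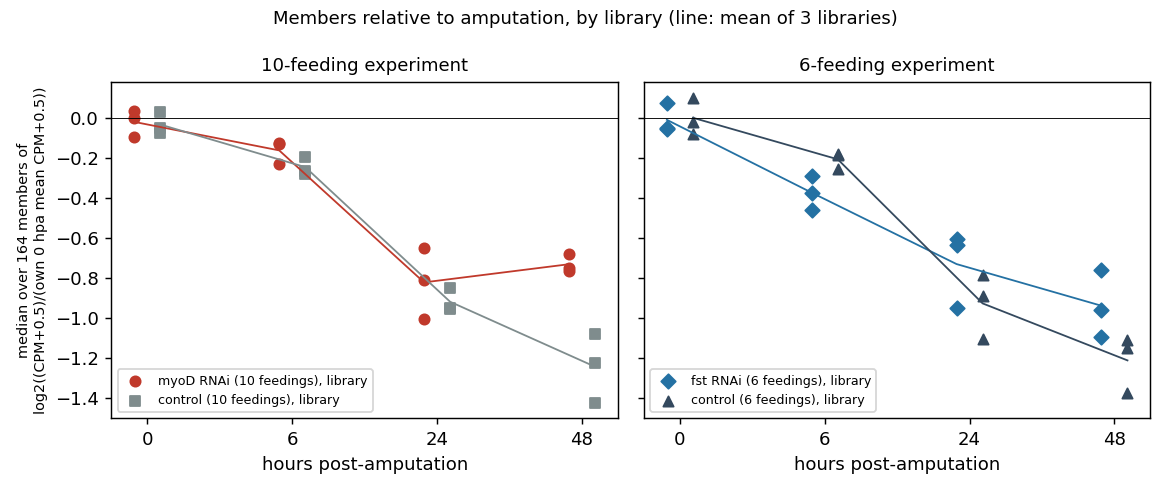
Median over the 164 members of the log2 change from the own arm's mean at 0 hpa, 1 point per library, against hours post-amputation (categories, not to scale); lines join the means of 3 libraries. At 48 hpa the myoD RNAi libraries sit between -0.76 and -0.68, above their control libraries between -1.42 and -1.08.

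The 2 members with the lowest averaged value at 24 hpa show the pattern in single libraries. dd_Smed_v4_12035_0_1 read 7.39, 6.43 and 7.62 CPM at 0 hpa in the 10-feeding control, 2.91, 4.82 and 3.74 CPM at 6 hpa, 0.690, 0.337 and 0.455 CPM at 24 hpa, and 0.401, 0.220 and 0.0683 CPM at 48 hpa. In the 6-feeding control it read 3.31, 4.53 and 4.45 CPM at 0 hpa and 0.474, 0.210 and 0 CPM at 48 hpa. The libraries of 24 and 48 hpa lie far below those of 0 hpa in both experiments. In the 10-feeding control, the libraries of dd_Smed_v4_7295_0_1 at 6 hpa overlapped those at 0 hpa, unlike those of dd_Smed_v4_12035_0_1. There dd_Smed_v4_7295_0_1 read 50.1, 69.7 and 53.9 CPM at 0 hpa, 75, 62.5 and 62.4 CPM at 6 hpa, 11.5, 14.2 and 10.8 CPM at 24 hpa, and 7.21, 8.50 and 10.5 CPM at 48 hpa. In the 6-feeding control dd_Smed_v4_12035_0_1 overlapped as well, with 3.18, 3.00 and 3.63 CPM at 6 hpa.

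**Figure D2:**
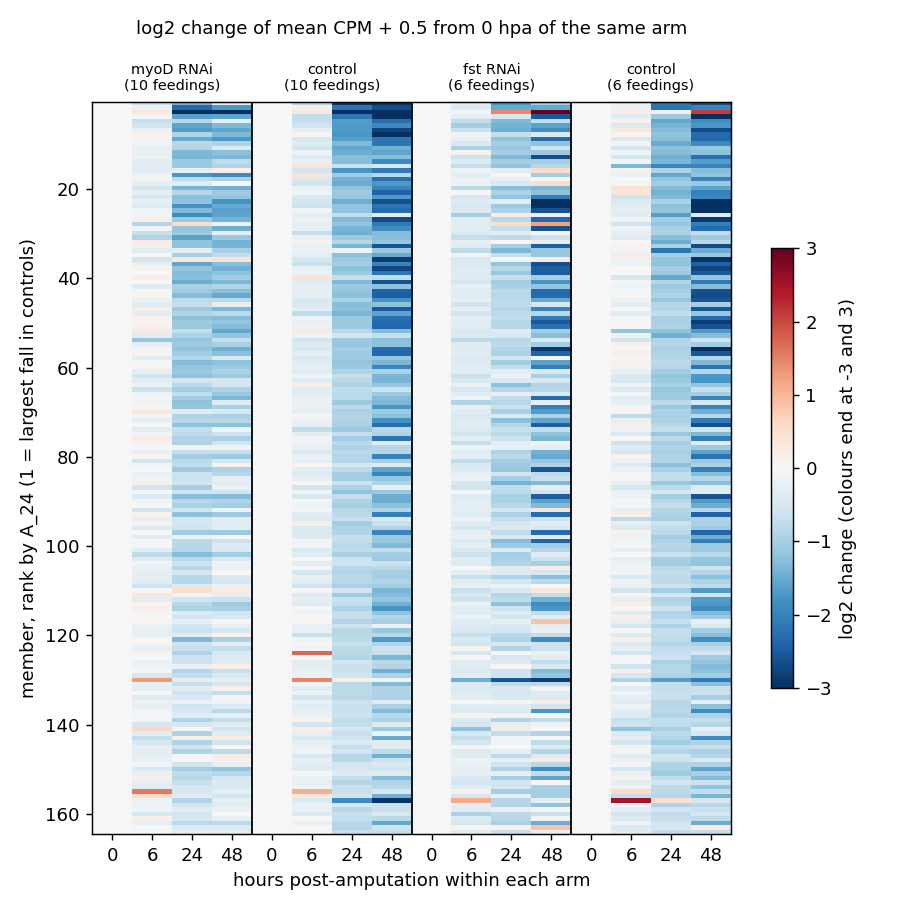
Log2 change of mean CPM + 0.5 from 0 hpa of the same arm for the 164 members (rows, ordered by the averaged 24 hpa change in controls) at 0, 6, 24 and 48 hpa in the 4 arms, with colours ending at -3 and 3. Most rows darken to blue in both controls between 24 and 48 hpa, while many rows are paler at 48 hpa in the myoD RNAi columns.

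For a few members, picked out here after their values were seen, the controls of the experiments differed widely, and 3 of the 164 were not lower at 24 hpa in both. dd_Smed_v4_300_0_1 changed by -4.27 on the log2 scale at 24 against 0 hpa in the 10-feeding control and by 0.18 in the 6-feeding control. It averaged 2362 ± 665 CPM at 24 hpa against 45607 ± 19078 CPM at 0 hpa in the 10-feeding control, and 2177 ± 97.1 CPM at 24 hpa against 1917 ± 327 CPM at 0 hpa in the 6-feeding control (SD, n = 3 each). dd_Smed_v4_2394_0_1 likewise changed by -1.88 in the 10-feeding control and by 0.45 in the 6-feeding control. In the same order of experiments dd_Smed_v4_7731_0_1 changed by 0.15 and -1.66, and dd_Smed_v4_8227_0_1, lower in both, by -0.11 and -2.18.

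The RNAi libraries give a time course that the rule did not choose, since they entered it only through the spread at 0 hpa. After myoD RNAi the set was lower at 24 hpa as in controls: edgeR's quasi-likelihood test called 128 of 164 members lower at 24 than 0 hpa at an adjusted p under 0.05, where 8.78% of all 17527 tested transcripts were called lower. The median log2 fold change of the members was -0.91, with 159 negative, against -0.02 over all tested transcripts. Of the 128, 65 were at least 2-fold lower. dd_Smed_v4_25487_0_1 read 0.342, 0.482 and 0.341 CPM at 24 hpa, against 2.37, 2.35 and 2.05 CPM at 0 hpa. These groups do not overlap, and its log2 fold change was -2.53 ± 0.31 (SE, adjusted p = 6.84e-07, n = 3 each). dd_Smed_v4_300_0_1 read 2399 to 4375 CPM at 24 hpa against 31138 to 42991 CPM at 0 hpa. Its log2 fold change was -3.54 ± 0.38 (SE, edgeR adjusted p = 6.69e-06). In both 10-feeding arms it read 31138 to 74298 CPM in every library at 0 and 6 hpa. Every later library of these arms read 1955 to 4375 CPM. Whether this step follows time or a division of the libraries was not tested.

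A single member was called higher by edgeR in the myoD RNAi wounds between those times, where 9.26% of all transcripts were. DESeq2 called 2 higher, and 3 had an unadjusted edgeR p under 0.05. dd_Smed_v4_7824_0_1 read 48.3, 58.6 and 51.8 CPM at 24 hpa, against 30.5, 37.8 and 36.2 CPM at 0 hpa, a log2 fold change of 0.56 ± 0.16 (SE, edgeR adjusted p = 0.0194). The call was lost without myoD RNAi replicate 1 at 0 hpa (adjusted p = 0.0974) and without replicates 2 and 3 at 24 hpa (0.0716 and 0.0512). Its control libraries read 19.6, 28.6 and 23.5 CPM at 24 hpa. The rule used those control libraries, so nothing is read from their distance to the myoD RNAi libraries.

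At 6 against 0 hpa after myoD RNAi, 21 members were called lower and 4 higher, with 7.12% and 9.85% of all transcripts called in those directions, and the median log2 fold change was -0.12. With only the compared groups fitted, 38 were called lower. The largest rise was that of dd_Smed_v4_15647_0_1, which read 9.53, 7.12 and 10.6 CPM at 6 hpa against 2.96, 2.45 and 2.87 CPM at 0 hpa (log2 fold change 1.74 ± 0.24 SE, edgeR adjusted p = 9.51e-06). dd_Smed_v4_7731_0_1 also rose, with 25, 17.8 and 21.2 CPM at 6 hpa against 7.86, 8.88 and 8.60 CPM at 0 hpa (1.35 ± 0.17 SE, edgeR adjusted p = 4.80e-06). At 24 hpa they averaged 1.81 ± 0.841 and 6.83 ± 1.48 CPM, against 2.76 ± 0.272 and 8.45 ± 0.529 CPM at 0 hpa (SD, n = 3 each). Neither difference between 24 and 0 hpa was called (edgeR adjusted p = 0.118 and 0.210). dd_Smed_v4_3281_0_1 is an example of an early fall, reading 115, 101 and 101 CPM at 6 hpa against 248, 254 and 210 CPM at 0 hpa (-1.14 ± 0.11 SE, edgeR adjusted p = 2.98e-07).

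Between 24 and 48 hpa after myoD RNAi, more members rose than fell. edgeR called 18 members higher and 2 lower at 48 than 24 hpa, with 5.33% and 6.51% of all transcripts called in those directions, and the median log2 fold change was 0.10. The number called was 11 without myoD RNAi replicate 2 at 24 hpa and 12 without replicate 1 or without replicate 3 at 48 hpa. dd_Smed_v4_12035_0_1 read 4.53, 7.20 and 4.69 CPM at 48 hpa, against 1.8, 2.47 and 2.11 CPM at 24 hpa. Its 48 hpa libraries lie above all those of 24 hpa, a log2 fold change of 1.29 ± 0.21 (SE, edgeR adjusted p = 0.000103), and its 0 hpa libraries had read 5.98, 6.48 and 6.96 CPM.

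Measured from amputation, 100 members were lower at 48 than 0 hpa after myoD RNAi, beside 6.1% of all transcripts, with a median log2 fold change of -0.82. Leaving out myoD RNAi replicate 1 at 48 hpa brought that count to 59. dd_Smed_v4_14219_0_1 was among the largest falls, with 0.158, 0.758 and 0.372 CPM at 48 hpa against 3.28, 2.81 and 2.87 CPM at 0 hpa (-2.96 ± 0.30 SE, edgeR adjusted p = 7.08e-08; -3.63 without myoD RNAi replicate 2 at 48 hpa). A single member rose, beside 4.2% of all transcripts: dd_Smed_v4_4427_0_1 read 41.2, 40.9 and 34.7 CPM at 48 hpa against 29.4, 28.1 and 30.4 CPM at 0 hpa (0.33 ± 0.10 SE, edgeR adjusted p = 0.0271). That small rise lost its call without replicate 1 or 2 of either time, with adjusted p between 0.0874 and 0.124.

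After fst RNAi the set was also lower at 24 hpa. edgeR called 84 members lower at 24 than 0 hpa, beside 5.09% of the 17815 transcripts tested, with a median log2 fold change of -0.89 and 158 negative. The count was 55 without fst RNAi replicate 3 at 24 hpa. None was called higher by edgeR or by DESeq2, 1 had an unadjusted p under 0.05 in that direction, and 4.37% of all transcripts were called higher. dd_Smed_v4_7731_0_1 read 8.53, 5.18 and 9.48 CPM at 24 hpa, against 55.6, 37.8 and 54.6 CPM at 0 hpa. Its log2 fold change was -2.79 ± 0.23 (SE, edgeR adjusted p = 8.48e-08), and its control libraries at 0 hpa read 41.3, 32.4 and 40.4 CPM. dd_Smed_v4_12035_0_1 read 1.94, 2.24 and 1.74 CPM at 24 hpa against 7.44, 8.44 and 7.54 CPM at 0 hpa (-2.05 ± 0.22 SE, edgeR adjusted p = 1.15e-06).

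At 6 against 0 hpa after fst RNAi, 23 members were called lower by edgeR, beside 2.85% of all transcripts, and the median log2 fold change was -0.37. The count was 15 and 12 without fst RNAi replicates 2 and 3 at 6 hpa, and 14 and 12 without replicates 1 and 2 at 0 hpa. It was 55 with only the compared groups fitted. None was called higher by edgeR or DESeq2 and 1 had an unadjusted p under 0.05, beside 4.88% of all transcripts called higher. dd_Smed_v4_16606_0_1 read 0.256, 0.574 and 0.530 CPM at 6 hpa against 1.67, 2.32 and 1.1 CPM at 0 hpa (-1.88 ± 0.47 SE, edgeR adjusted p = 0.0120). That call was lost without fst RNAi replicate 1 at 6 hpa (adjusted p = 0.0628) and without replicate 2 at 0 hpa (0.112).

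At 48 against 0 hpa after fst RNAi, 115 members were lower and 3 higher, beside 9.77% and 10.6% of all transcripts, and the median log2 fold change was -1.02. Without replicate 1 of fst RNAi at 48 hpa the lower count was 110. dd_Smed_v4_3166_0_1 read 0.125, 0.413 and 1.32 CPM at 48 hpa, against 11.5, 5.44 and 9.58 CPM at 0 hpa (-3.79 ± 0.80 SE, edgeR adjusted p = 0.00355; -4.93 without fst RNAi replicate 3 at 48 hpa). dd_Smed_v4_29341_0_1 had 2 counts in the 3 libraries at 48 hpa and 105 at 0 hpa, where it was 30.8 times as abundant (95% exact binomial interval 8.30 to 257, for counting error only). Of the members that rose, dd_Smed_v4_16227_0_1 read 14.9, 7.75 and 7.21 CPM at 48 hpa against 3.72, 4.30 and 4.14 CPM at 0 hpa (1.24 ± 0.26 SE, edgeR adjusted p = 0.00204), and 0.75 on the log2 scale without replicate 1. dd_Smed_v4_300_0_1 read 61387, 7648 and 9092 CPM at 48 hpa against 2138, 2061 and 2302 CPM at 0 hpa; its log2 fold change was 3.63 with replicate 1 and 1.83 without it. This transcript followed the division of libraries described above: it read 4500, 6454 and 6568 CPM in fst RNAi wounds at 24 hpa and 6247, 7695 and 10088 CPM in the 6-feeding control at 48 hpa, and the other 6-feeding libraries lay between 1663 and 2322 CPM. The calls of dd_Smed_v4_16227_0_1 and dd_Smed_v4_300_0_1 were lost when only the compared groups were fitted (adjusted p = 0.0871 and 0.0721).

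Between 24 and 48 hpa after fst RNAi, 3 members were called lower and 3 higher, beside 0.64% and 0.438% of all transcripts, with a median log2 fold change of -0.21. None was called by edgeR without replicate 1 of fst RNAi at 48 hpa, when 72 had an unadjusted p under 0.05, or without replicate 1 at 24 hpa, when 59 did. The number called was 3 without replicate 2 at 24 hpa, 22 without replicate 2 at 48 hpa and 30 without replicate 3 at 48 hpa, and DESeq2 called 39 with all libraries. Shares over all transcripts were not computed for these alternative fits, so their counts are not read as a result about the members.

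**Figure D3:**
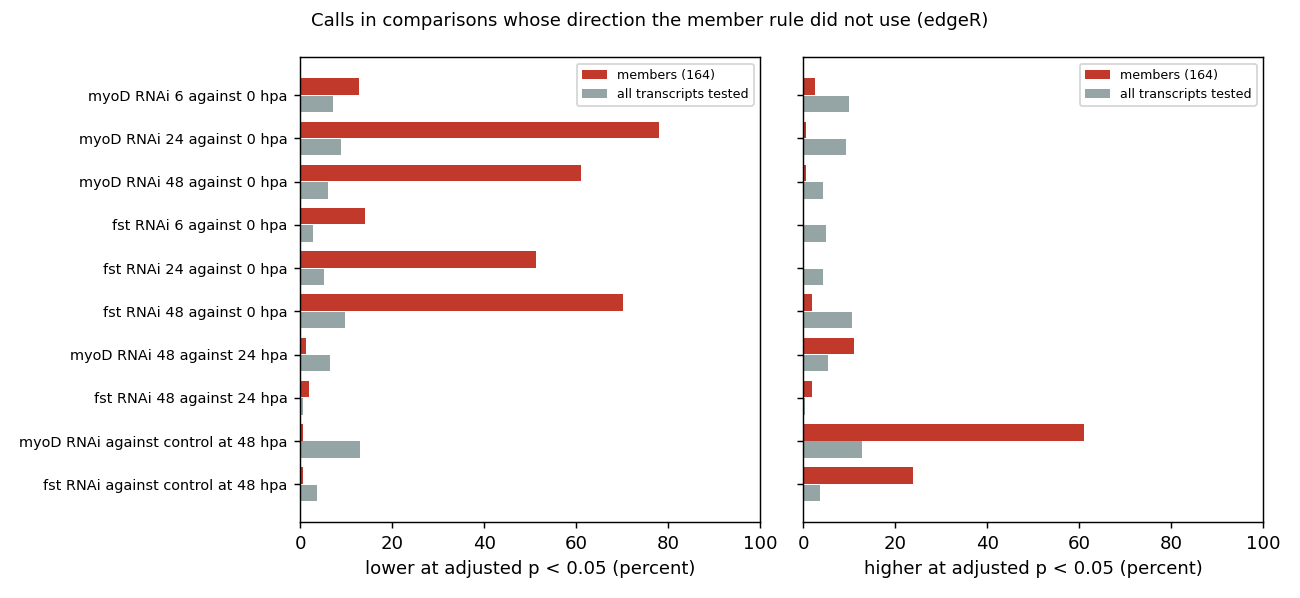
Percent of the 164 members (red) and of all tested transcripts (grey) called lower (left) or higher (right) at an edgeR adjusted p under 0.05 in each comparison. Members were called lower at 24 against 0 hpa in 78.0% of cases after myoD RNAi and 51.2% after fst RNAi, and higher than control at 48 hpa in 61.0% and 23.8%.

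At 48 hpa the members were higher after myoD RNAi than in control wounds. edgeR called 100 of 164 higher and 1 lower, where 12.7% and 12.9% of all transcripts were called in those directions. The median log2 fold change of the members was 0.81, with quartiles of 0.42 and 1.24 and with 149 positive, against 0.01 over all transcripts. Of the 100, 56 were at least 2-fold higher. The number higher was 58 without control replicate 1 at 48 hpa. Neither group of libraries was used by the rule.

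dd_Smed_v4_12035_0_1 and dd_Smed_v4_4427_0_1 were the largest of these differences among the members whose groups do not overlap. dd_Smed_v4_12035_0_1 averaged 5.47 ± 1.5 CPM after myoD RNAi and 0.230 ± 0.166 CPM in control wounds (SD, n = 3 each), a 24.0-fold difference (log2 4.59 ± 0.32 SE, edgeR adjusted p = 4.10e-12; log2 5.23 without control replicate 1). dd_Smed_v4_4427_0_1 averaged 38.9 ± 3.71 CPM after myoD RNAi and 3.94 ± 1.06 CPM in control wounds, a 10.4-fold difference (log2 3.39 ± 0.13 SE, edgeR adjusted p = 8.68e-19). The transcripts arrived there differently: the first was low at 24 hpa and higher again at 48 hpa after myoD RNAi, while the myoD RNAi mean of the other was 29.3, 19.8, 36.4 and 38.9 CPM at 0, 6, 24 and 48 hpa. The control mean of the other was 31.3, 21.7, 14.5 and 3.94 CPM at the same times.

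At 48 hpa the members were also higher after fst RNAi than in control wounds. edgeR called 39 of 164 higher and 1 lower, where 3.7% and 3.6% of all transcripts were called, with a median log2 fold change of 0.49 and 135 positive. Of the 39, 29 were at least 2-fold higher. Without the fst RNAi library labelled as contaminated, 36 were higher. With only the 2 compared groups in the fit, 20 were higher. dd_Smed_v4_12035_0_1 read 3.38, 2.69 and 4.98 CPM after fst RNAi and 0.474, 0.210 and 0 CPM in control wounds, a 15.2-fold difference (log2 3.93 ± 0.40 SE, edgeR adjusted p = 3.90e-07; log2 4.96 without control replicate 1). Those control libraries held 5, 2 and 0 counts of it. At 0 hpa it already read 7.44, 8.44 and 7.54 CPM after fst RNAi against 3.31, 4.53 and 4.45 CPM in its control. dd_Smed_v4_16227_0_1 read 14.9, 7.75 and 7.21 CPM after fst RNAi and 0.759, 0.314 and 1.53 CPM in control wounds, a 13.3-fold difference (log2 3.73 ± 0.36 SE, edgeR adjusted p = 1.78e-07). dd_Smed_v4_4427_0_1 read 38.7, 47.3 and 48.9 CPM after fst RNAi and 4.55, 2.31 and 4.46 CPM in control wounds. For each of these members every fst RNAi library lies above every control library.

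**Figure D4:**
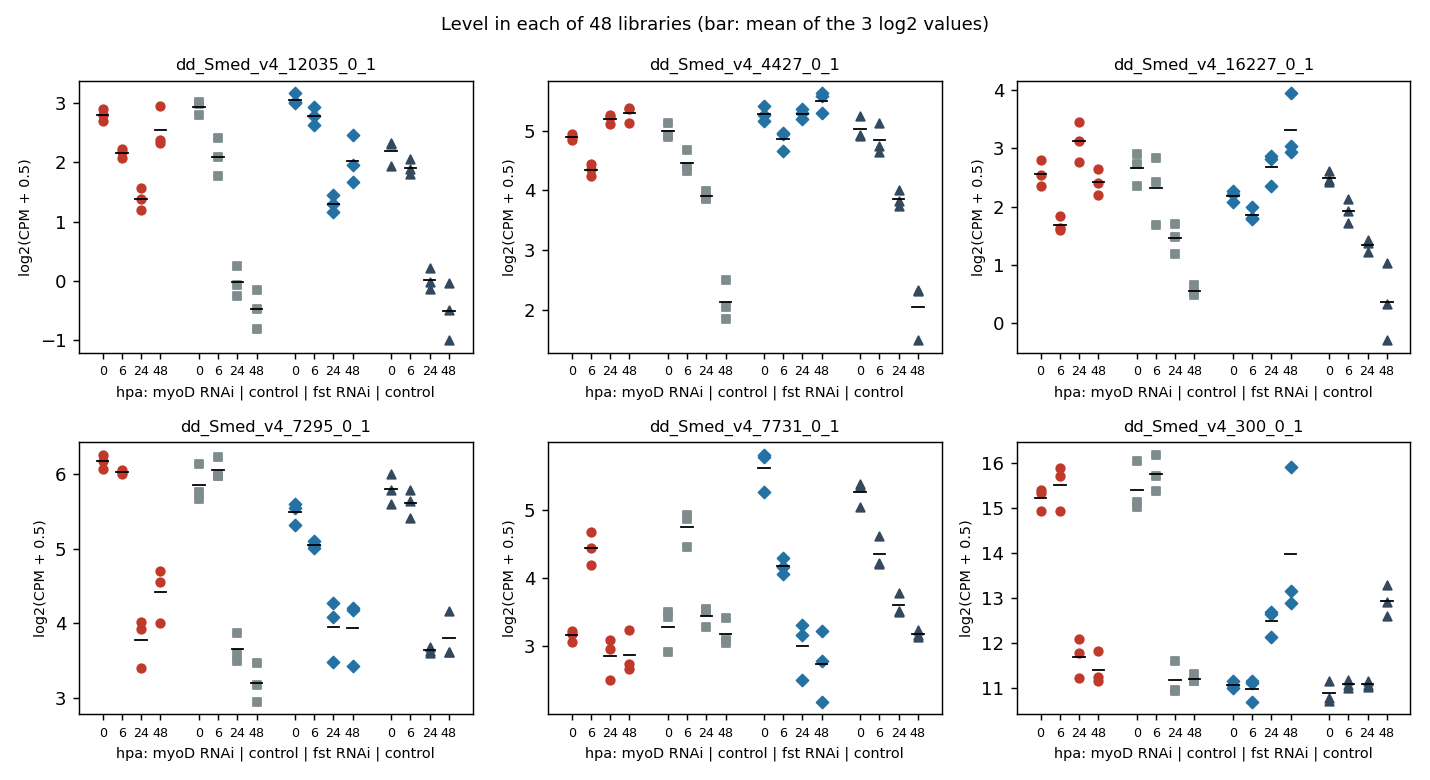
Log2(CPM + 0.5) of 6 members in all 48 libraries at 0, 6, 24 and 48 hpa, with the arms in the order myoD RNAi, its control, fst RNAi, its control; bars are means of 3 log2 values. In the upper row the RNAi libraries at 48 hpa stand above the control libraries of that time; in the lower row dd_Smed_v4_7731_0_1 and dd_Smed_v4_300_0_1 start at different levels in the 2 experiments.

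The members higher after fst RNAi were mostly among those higher after myoD RNAi. Of the 39 called higher after fst RNAi, 37 were also called higher after myoD RNAi, which is 94.9% of those 39 and 37% of the 100 called after myoD RNAi. Over all 17288 transcripts tested in both experiments, 447 were called higher in both, which is 68.1% of the 656 called higher after fst RNAi. These shares start from unlike base rates, since 61.0% of the members and 12.8% of all these transcripts were called higher after myoD RNAi. No sharing particular to the members is read from them. The log2 fold change was positive in both for 129 members, or 78.7%, and for 34.5% of all transcripts tested in both. Taken singly, it was positive for 149 members after myoD RNAi and 135 after fst RNAi. Across the 164 members, the myoD and fst effects at 48 hpa had a Pearson r of 0.67 and a Spearman rho of 0.59; no library is shared, but members share libraries within each experiment and are not independent points. Only dd_Smed_v4_315_0_1 was lower in both. It averaged 49.0 ± 13.8 CPM after myoD RNAi and 107 ± 4.53 CPM in control wounds (log2 fold change -1.04 ± 0.26 SE, edgeR adjusted p = 0.00699), and 115 ± 15.1 CPM after fst RNAi and 208 ± 27.4 CPM in control wounds (-0.73 ± 0.20 SE, edgeR adjusted p = 0.0338). At 0 hpa it already read 150, 124 and 121 CPM after fst RNAi against 319, 264 and 238 CPM in its control, so that at 48 hpa it stood at 86.9% of its own start after fst RNAi and 75.8% in the control. Its fst RNAi call was lost without fst RNAi replicate 1 or 2, without control replicate 1 or 3, without the low-count filter and with only the compared groups fitted.

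**Figure D5:**
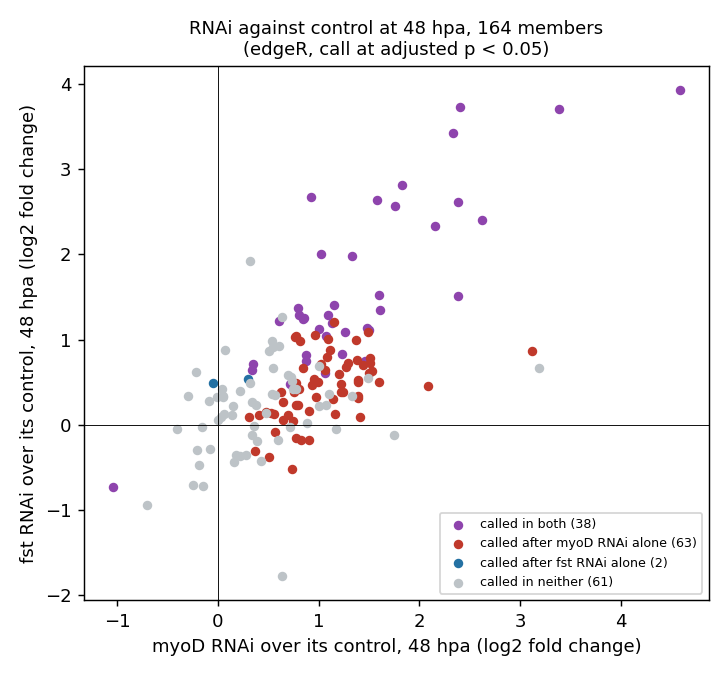
Log2 fold change of each of the 164 members at 48 hpa, fst RNAi over control (vertical) against myoD RNAi over control (horizontal), coloured by the edgeR calls. The cloud sits in the upper right quadrant with 129 members positive on both axes, and 63 members were called after myoD RNAi alone.

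Members that were more reduced at 48 hpa in the control of either experiment had the larger median RNAi effect in the other experiment. The experiments share no library, but each effect is measured against its own control at 48 hpa. A fall common to both controls can therefore enlarge the effect, so nothing is read from this relation. Of the 108 members at least 2-fold lower at 48 than 0 hpa in the 6-feeding control, 71 were higher after myoD RNAi, with a median log2 fold change of 1.01. Of the other 56, 29 were higher, with a median of 0.54. Of the 104 members at least 2-fold lower in the 10-feeding control, 28 were higher after fst RNAi, with a median of 0.61, and of the other 60, 11 were, with a median of 0.30. Over the 164 members the 6-feeding control fall had a correlation of -0.49 (Pearson) and -0.52 (Spearman) with the myoD effect. The 10-feeding control fall had -0.44 and -0.41 with the fst effect. These values describe members that share libraries, and were not tested. The falls also use control libraries of 0 hpa, which entered the rule. Shares and correlations over all transcripts were not computed for this split.

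Set against each arm's own start, the median member stood at 90.3%, 54.3% and 60.2% of its 0 hpa level at 6, 24 and 48 hpa after myoD RNAi, and at 76.6%, 56.9% and 50.7% after fst RNAi. At 48 hpa, 49 members held at least 75% of their own 0 hpa level after myoD RNAi and 9 did in its control, while 5 were at or under 25% after myoD RNAi and 46 in its control. After fst RNAi 41 members held at least 75% and 8 did in its control, while 34 were at or under 25% after fst RNAi and 49 in its control. The control 0 hpa libraries helped choose the members, while the RNAi ones entered only through their spread. That choice can make the control percentages lower, so these counts are a description and were not tested.

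The difference between the myoD and fst effects at 48 hpa passed the test for few members. Tested as a difference of differences over all 48 libraries, 6 members were called, 3 in each direction, beside 0.165% of 18230 transcripts with a myoD effect above the fst effect and 0.357% with one below it. Experiment and number of feedings differ with the RNAi target, so their parts in this difference cannot be told apart. All 6-feeding libraries at 48 hpa were also among the 9 higher in dd_Smed_v4_28185_0_1. The median difference of the members was 0.30 on the log2 scale. dd_Smed_v4_950_0_1 read 157, 182 and 149 CPM after myoD RNAi against 58.5, 122 and 92.9 CPM in its control, and 411, 367 and 394 CPM after fst RNAi against 69.8, 62.6 and 69.3 CPM in its control. The difference of its effects was -1.76 ± 0.27 (SE, edgeR adjusted p = 0.000405), the larger effect being that of fst RNAi. At 0 hpa it already averaged 315 CPM after myoD RNAi and 435 CPM in its control. The fst RNAi mean at 0 hpa was 378 CPM, and that of its control was 267 CPM. The test does not subtract these 0 hpa levels. With only the 12 libraries at 48 hpa fitted, edgeR called none, while 22 members had an unadjusted p under 0.05, and DESeq2 on all libraries called 5 with a larger myoD effect and 3 with a larger fst effect.

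The authors' deposited tables of pairwise comparisons, read at their adjusted p under 0.05, hold 112 members lower at 24 than 0 hpa after myoD RNAi and 70 after fst RNAi, beside 3.54% and 1.3% of all transcripts with an adjusted p there. In the authors' deposited tables for 48 hpa, 93 members were higher and 1 lower after myoD RNAi than control, beside 5.43% and 6.54% of all transcripts. The authors' deposited table for fst RNAi at 48 hpa holds 33 members higher than control and 0 lower, beside 1.06% and 0.608% of all transcripts, where edgeR called 1 lower and 4 had an unadjusted p under 0.05. The sign of the authors' deposited log2 fold change was that of the edgeR fit for 161 to 164 members, depending on the comparison.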

How the data were processed

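The authors deposited a table of raw counts, 1 whole number per transcript and library. Among tools, DESeq, SAMtools, Bowtie 1.1.1, cutadapt 1.8 and CASAVA are listed, per the submitters' processing notes; the assembly's source and the use of strand are not given in the sources used here. Comparison tables that the authors deposited give the authors' log2 fold change, p-value and adjusted p-value per transcript. Groups follow sample titles.

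CPM is the count over the library total. Counts were fitted in R 4.3.3 with edgeR 4.0.16 (limma 3.58.1; filterByExpr, TMM, robust quasi-likelihood), each experiment with its 24 libraries and 1 coefficient per group, and all 48 for the difference of effects, with Benjamini-Hochberg adjustment over all transcripts tested and a call at 0.05. DESeq2 1.42.0 was an alternative. SE is the log2 fold change over the square root of F. Biological coefficients of variation were 8.34% (10 feedings), 13.0% (6 feedings) and 10.9% (joint). On simulated counts for 24 against 0 hpa with 200 transcripts changed 2-fold, edgeR recovered 94% (myoD RNAi, 17527 transcripts) and 85% (fst RNAi, 17815), with 10 and 13 false calls. The changed transcripts were drawn above a minimum expected count, with the spread that edgeR estimated. No contaminated library or division of libraries was simulated, so recovery in the real libraries may differ.

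The members and lists were chosen with earlier results of these data known. Transcripts named are the 2 lowest at 24 hpa and, per comparison, up to 2 in each direction with the largest fold change among calls at 1 CPM or more without overlap; further ones are marked as picked after their values were seen. dd_Smed_v4_4427_0_1 is repeated where it was not so named.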

Additional observations from a re-analysis of the deposited data

Results flagged for a closer look

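The myoD and fst effects at 48 hpa, each RNAi group against its own control, differed by the test of the difference itself for 6 members, of which 4 met the rule for being named. Experiment and number of feedings differ with the RNAi target and cannot be told apart from it. The test does not subtract 0 hpa levels, at which the means of these 4 already lay apart in the same direction. For dd_Smed_v4_13199_0_1 the difference was 1.25 ± 0.27 on the log2 scale (SE, edgeR adjusted p = 0.0134). It read 9.54, 8.72 and 9.82 CPM after myoD RNAi against 5.01, 6.08 and 6.77 CPM in its control, and 3.01, 2.89 and 3.96 CPM after fst RNAi against 5.40, 3.98 and 6.28 CPM in its control. For dd_Smed_v4_8505_0_1 the difference was 0.91 ± 0.21 (SE, edgeR adjusted p = 0.0254), with 33.0, 30.7 and 31.8 CPM after myoD RNAi against 19.5, 17.6 and 22.1 CPM in its control, and 10.7, 22 and 21.7 CPM after fst RNAi against 21.8, 20.8 and 23.2 CPM in its control. The lowest of these values belongs to the fst RNAi library labelled as contaminated, and the difference was 0.71 without it. For dd_Smed_v4_950_0_1 the difference was -1.76 ± 0.27 (SE, edgeR adjusted p = 0.000405). For dd_Smed_v4_1040_0_1 it was -0.66 ± 0.14 (SE, edgeR adjusted p = 0.0117), with 39.2, 42.4 and 39.5 CPM after myoD RNAi against 17.2, 17.9 and 16 CPM in its control, and 38.2, 56.5 and 56.5 CPM after fst RNAi against 12.4, 14.2 and 15.2 CPM in its control. With only the 12 libraries at 48 hpa fitted, the adjusted p values of these 4 were 0.230, 0.455, 0.0550 and 0.346 in the order given. At 0 hpa dd_Smed_v4_13199_0_1 averaged 12.7 CPM after myoD RNAi (control 11.7) and 8.08 CPM after fst RNAi (control 11.1). For dd_Smed_v4_8505_0_1 these means were 29.2 (25.4) and 35.0 (42.9) CPM, and for dd_Smed_v4_1040_0_1 37.9 (37.2) and 64.0 (39.3) CPM. Leaving out 1 library at a time ended the call of dd_Smed_v4_8505_0_1 in 8 of 12 cases, of dd_Smed_v4_13199_0_1 in 2 (control replicate 1 of the 10-feeding and replicate 3 of the 6-feeding experiment), of dd_Smed_v4_1040_0_1 in 1 (6-feeding control replicate 1) and of dd_Smed_v4_950_0_1 in 0.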

How the results depend on the processing

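None of the 36 log2 fold changes of named transcripts changed sign under the alternatives run: 353 of 418 alternative fits kept the call and 65 lost it, over 17 of the results. In the pairwise comparisons, transcripts were named only if called without overlap between the groups. That choice largely fixes the sign, so nothing is read from the unchanged signs. With RLE size factors every count of calls stayed within 1.5 times. With only the compared groups fitted, members lower at 6 against 0 hpa were 38 after myoD RNAi and 55 after fst RNAi; at 48 against 24 hpa after fst RNAi edgeR called 0 (57 at an unadjusted p under 0.05; 0 higher, 0 lower); at 48 hpa 3 members were lower after myoD RNAi than control, and 20 were called after fst RNAi (20 higher; 0 lower, with 3 lower at an unadjusted p under 0.05). DESeq2 called 39 members at 48 against 24 hpa after fst RNAi (15 higher, 24 lower) and 5 with a larger myoD than fst effect. Without the low-count filter 0 members were lower after fst RNAi at 48 hpa (5 at an unadjusted p under 0.05). With only the 12 libraries at 48 hpa, 0 differences of effects were called (0 and 0 by direction; 22 at an unadjusted p under 0.05). Same-numbered replicates did not deviate together (correlations from -0.304 to 0.383; above 0.1 in 10 pairs), so the numbers were not taken to pair samples. With a replicate block, 2 members were called at 48 against 24 hpa after fst RNAi, 0 of them higher (30 at an unadjusted p under 0.05); other counts stayed within 1.5 times. Leaving out 1 library at a time gave ranges of 15 to 19 lower at 6, 89 to 117 at 24 and 59 to 89 at 48 against 0 hpa after myoD RNAi, and 12 to 22, 55 to 81 and 104 to 110 after fst RNAi. For 48 against 24 hpa the ranges were 11 to 24 called (10 to 23 higher, 0 to 3 lower) after myoD RNAi and 0 to 30 (0 to 16 higher, 0 to 14 lower) after fst RNAi. At 48 hpa against control they were 59 to 105 (58 to 104 higher, 1 to 2 lower) after myoD RNAi and 28 to 54 (28 to 53 higher, 0 to 1 lower) after fst RNAi, and 2 to 10 differences of effects (0 to 6 with a larger myoD effect, 2 to 5 with a larger fst effect). The rule gave 136 members with a pseudocount of 1 CPM (135 shared), 167 without the spread limit (164 shared) and 200, its maximum, with TMM-scaled CPM (163 shared; 228 without the maximum). For the alternative fits, here and above, shares over all transcripts were not computed. Their counts show how the calls vary and are not read as results about the members. The causes were not tested.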
